A study of Rattus norvegicus with 16 samples.

Results

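DNA methylation was compared at postnatal day 7 (P7) between 4 amygdala libraries from female Long-Evans rat offspring of dams on a high-fat diet and 4 from offspring of dams on a control diet. These 8 libraries, of 16 in the series, were taken by the diet and age in their labels. The dams of the high-fat group ate that diet from 4 weeks before pregnancy through gestation and lactation, and the pups themselves were not fed it. Neither what the diets contained nor the litter or dam of each pup is stated in the labels. The p-values of means therefore measure the spread between these libraries. Those of most single CpGs rest on a trend over all CpGs instead, as given below. Each library comes from amygdala dissected by stereotaxic position from frozen sections, and the amygdala identity was not checked against other data here. The question put to the 8 libraries was whether the maternal diet moved methylation at scales from single CpGs to whole chromosomes, where many small shifts could add up.

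The amygdala is a brain region known for its part in fear, anxiety and stress responses. DNA methylation in mammals is mostly a methyl group on the cytosine of a CpG dinucleotide, placed and kept by DNA methyltransferases, and it lies on both strands because CpG reads the same on each. Most CpGs of a mammalian genome are highly methylated, while CpG islands at many promoters are not, and regulatory elements often sit between. Reduced representation bisulfite sequencing (RRBS) reads the CpG-rich fragments left by a restriction enzyme after bisulfite has converted unmethylated cytosines. In bulk tissue, a change in methylation within cells and a change in the mix of cell types cannot be told apart.

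CpGs entered when read 10 or more times in each of the 8 libraries after both strands had been added up, which left 548788 of the 3648438 CpGs listed in any of them. The files held 22087054 to 63677193 reads per library. The median CpG had 23 reads in control replicate 2, 31 to 38 in the other libraries apart from high-fat replicate 1, and 64 in that one. Every listed cytosine had at least 1 methylated read, so a cytosine without any is missing from the files and the lowest levels are overstated. Pairs of libraries correlated with r between 0.912 and 0.940 across CpGs. Mitochondrial cytosines, which are largely unmethylated, read 0.284% to 0.352% methylated in the 8 libraries.

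One control library went against the label of a female animal. Control replicate 2 had 12963 X-chromosome reads per 1000000, against 27970 to 31009 in the other 7. It listed 555 cytosines of the Y chromosome, against 293 to 419, and 267 of them were listed in no other library. On unplaced contigs of the Y it did not stand out in this way. There it listed 2486 cytosines, against 2747 to 4090, and its 624.2 reads per 1000000 lay inside the 525.9 to 715.7 of the others. Of its X cytosines with 10 or more reads, 10.4% lay between 30% and 70% methylation, where the inactive X of a female brings many sites, against 18.9% to 26.0% in the others. Results are therefore given with and without the library labelled control replicate 2 where they rest on it.

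Mean methylation overlapped between the diets. It was 75.8%, 73.9%, 74.6% and 75.2% in control replicates 1 to 4, and 75.6%, 75.1%, 72.7% and 74.5% in high-fat replicates 1 to 4. The ranges overlapped, high-fat replicate 3 was the lowest of the 8, and control replicate 2 the lowest of its group. The high-fat mean of 74.5% ± 1.24 (SD, n = 4) was 0.41 points under the control mean of 74.9% ± 0.82 (SD, n = 4), a difference of -0.41 that did not pass a two-sided exact permutation test over libraries (p = 0.6). The exact 97.1% permutation interval of the difference ran from -3.10 to 1.68 points, so shifts of up to those sizes remained possible. Without high-fat replicate 3 the difference was 0.17, in the other direction. Over the 605608 CpGs read 10 times in the 7 libraries other than control replicate 2, the difference was -0.74 (exact permutation p = 0.457). With reads pooled over CpGs, so that deeply read CpGs count more, it was -1.20 (exact permutation p = 0.629).

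**Figure D1:**
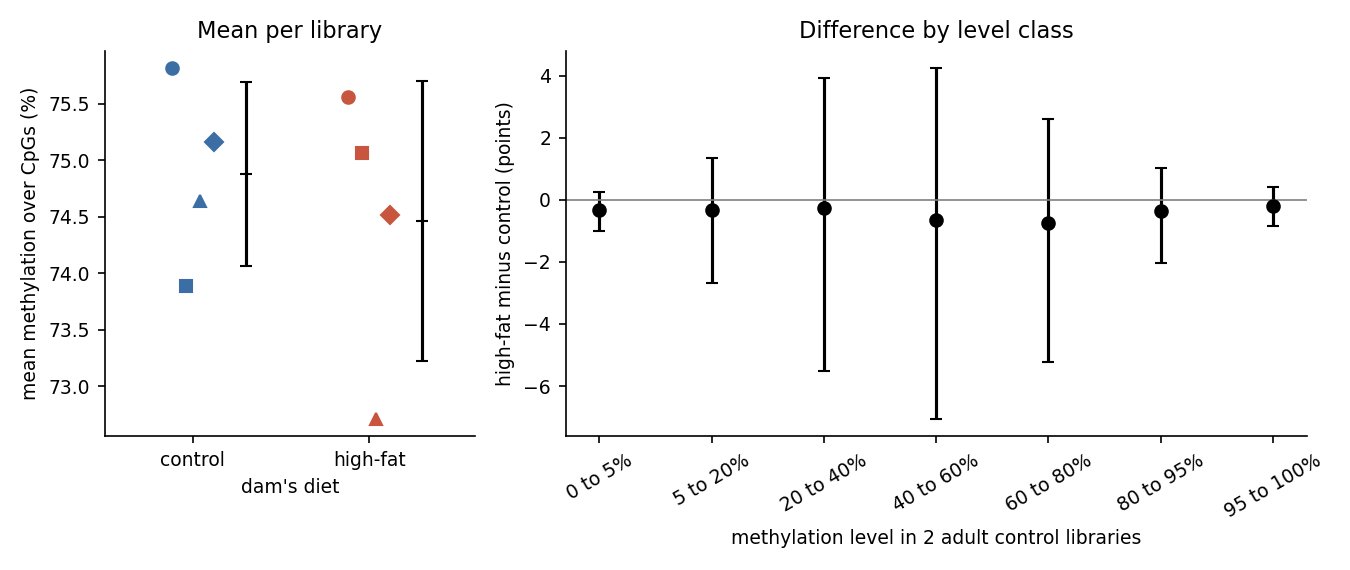
Left, mean methylation over 548788 CpGs in percent for each library (blue, control diet; red, high-fat diet; circle, square, triangle and diamond, replicates 1 to 4), with the mean and SD of the 4 beside them. Right, high-fat minus control in percentage points for 7 level classes, with the exact 97.1% permutation interval; all 7 intervals hold 0.

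No class of methylation level passed either. CpGs were sorted by their level in 2 adult (P90) control libraries outside the comparison, from nearly unmethylated sites, typical of CpG island promoters, to nearly fully methylated ones. In the 2773 CpGs at 0 to 5%, mean methylation was 5.05% ± 0.38 after high-fat diet and 5.37% ± 0.16 in controls (SD, n = 4), a difference of -0.32 that was the closest to the threshold (exact permutation p = 0.143, adjusted over the 7 classes 0.8). The differences were -0.34 in the 23030 CpGs at 5 to 20%, -0.28 in the 39141 at 20 to 40% and -0.66 in the 52478 at 40 to 60%. They were -0.74 in the 96177 CpGs at 60 to 80%, -0.35 in the 213910 at 80 to 95% and -0.21 in the 113810 at 95 to 100%. Thus 0 of 7 classes passed, 0 at an unadjusted exact permutation p under 0.05, and the adjusted p was 0.8 in each.

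The spread between libraries was widest where methylation was intermediate. At 40 to 60%, control replicates 1 to 4 had means of 51.5%, 46.5%, 49.1% and 49.8%. High-fat replicates 1 to 4 had 50.7%, 50.2%, 44.5% and 48.8% in that class. Control replicate 2 and high-fat replicate 3 were again the lowest of their groups, and the ranges overlapped. The interval of the class was -7.05 to 4.23 points, against -0.84 to 0.40 points at 95 to 100%. Without high-fat replicate 3 the difference turned positive in the 5 classes from 5 to 95%, with values from 0.029 to 0.81. Without control replicate 2 the differences were -0.66 at 5 to 20%, -1.14 at 20 to 40%, -1.57 at 40 to 60%, -1.26 at 60 to 80% and -0.51 at 80 to 95%, and no class passed. With each library centred on its own mean, 5 of the 7 differences were positive and lay between 0.066 and 0.20.

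On chromosomes, which bring together many CpGs each, the 20 autosomes had differences from -0.34 to -0.52 points and none passed (0 of 21 chromosomes, 0 at an unadjusted exact permutation p under 0.05, adjusted p = 0.714 for each). The lowest p-values below 0 were on chromosome 14 (-0.42 points, exact permutation p = 0.571) and chromosome 17 (-0.50 points, exact permutation p = 0.571). On chromosome 14 control replicates 1 to 4 had 77.4%, 75.8%, 76.3% and 76.6%, and high-fat replicates 1 to 4 had 77.1%, 76.6%, 74.6% and 76.1%. On chromosome 17 the values were 76.8%, 74.8%, 75.7% and 76.2% in controls and 76.6%, 75.8%, 73.6% and 75.5% in the high-fat group. High-fat replicate 3 was the lowest and control replicate 2 the next on both chromosomes, as over all CpGs. Without control replicate 2 the autosomes differed by -0.64 to -0.85 points, and none passed.

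The X chromosome alone had a positive difference, which turned without 1 library. Its mean over 10002 CpGs was 69.3%, 63.0%, 68.0% and 68.6% in control replicates 1 to 4 and 69.5%, 68.5%, 65.4% and 68.0% in high-fat replicates 1 to 4, a difference of 0.61 (exact permutation p = 0.714). Control replicate 2 was the lowest of the 8. Without it the difference was -0.80 (exact permutation p = 0.629), and over 20403 X CpGs chosen without regard to that library it was -0.68 (exact permutation p = 0.8). In X CpGs at 20 to 40% in the adult controls, control replicate 2 averaged 10.8% and the other 7 libraries 21.5% to 29.8%. In autosomal CpGs of that class it averaged 26.4%, inside the 24.9% to 30.4% of the others. In this class control replicate 2 was averaged only over CpGs with 10 or more reads in it. These were 1678 of 5070 on X and 37421 of 39882 on autosomes, while the other libraries were averaged over all.

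The share of CpGs at the extremes did not pass a test either. With every CpG thinned to 10 reads in each library, 6.36% ± 0.70 of CpGs in the high-fat group and 6.19% ± 0.56 in controls (SD, n = 4) had 0 or 1 methylated reads. The share with 9 or 10 methylated reads was 50.9% ± 1.87 and 51.6% ± 1.16. The share in between was 42.7% ± 1.27 and 42.2% ± 0.72. The 3 differences of 0.17, -0.68 and 0.51 points had an adjusted exact permutation p of 0.571 each, and 0 of the 3 passed, also at an unadjusted p under 0.05. Without control replicate 2 they were 0.43, -1.08 and 0.64 points.

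Shifts were then followed through windows of growing size, where the noise of single CpGs averages out. High-fat minus control was below 0 in 55.9% of 88027 windows of 1 kb, 58.3% of 41717 of 10 kb, 66.8% of 9018 of 100 kb and 80.7% of 2115 of 1 Mb. Once every library was centred on its own mean the shares were 48.5%, 48.7%, 49.7% and 51.6%. These are descriptions of windows that share libraries, with no test.

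The mean square between diets was 0.934 of that within diets at 1 kb, 0.916 at 10 kb, 0.748 at 100 kb and 0.562 at 1 Mb, where a ratio above 1 would mean that the diets differed more than animals of a diet did. After centring, the ratios were 0.971, 0.980, 0.959 and 0.896. The SD of the difference over windows fell from 2.98 points at 1 kb to 2.28, 1.11 and 0.608 points at 10 kb, 100 kb and 1 Mb. Differences of adjacent windows were correlated with r = 0.086 at 1 kb over 11403 pairs, 0.024 at 10 kb, 0.043 at 100 kb and 0.148 at 1 Mb over 1810 pairs. As the mean over its CpGs, no merged 1 Mb window differed by over 5 points.

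Single libraries lay low or high across most large windows. High-fat replicate 3 lay below the mean of its group in 65.8% of 1 kb windows and in 97.5% of 1 Mb windows. Control replicate 2 lay below its own in 57.2% and 87.8%. High-fat replicate 1, the most deeply read, lay below its group in 3.31% of 1 Mb windows. The number of 1 Mb windows whose 4 high-fat and 4 control values did not overlap was 11, or 0.52%, of which 10 were lower after high-fat diet. It was 50, or 2.36%, with the libraries centred.

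**Figure D2:**
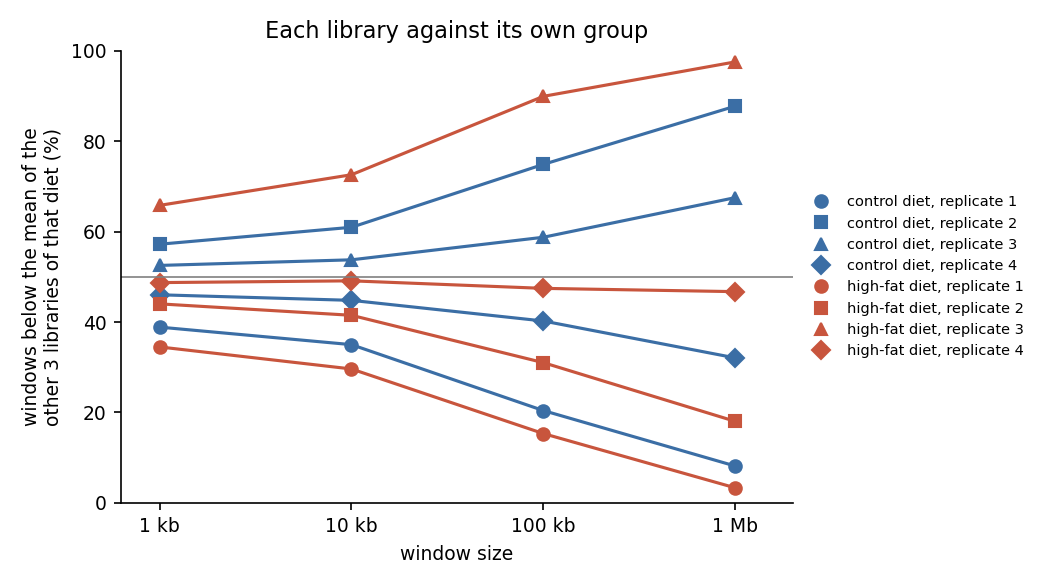
Share of windows in percent (vertical axis) in which each library lay below the mean of the other 3 libraries of its diet, for windows of 1 kb, 10 kb, 100 kb and 1 Mb (horizontal axis), with 1 line per library. High-fat replicate 3 climbs to 97.5% and control replicate 2 to 87.8% at 1 Mb, while high-fat replicate 1 drops to 3.31%.

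Windows were tested one by one with a logistic model of methylated and unmethylated reads at a false discovery rate of 0.05. At 1 Mb, 0 of 2115 windows passed (0%), with 10 at an unadjusted p under 0.05, and limma and edgeR each called 1. At 100 kb, 0 of 9018 passed (0%), with 195 at an unadjusted p under 0.05 and none called by limma or edgeR. Both counts under 0.05 fall short of the share of 0.05 that no difference would give, and the cause was not tested. Limma without centring gave 32 at 1 Mb and 249 at 100 kb. With limma on centred libraries they were 91 at 1 Mb and 396 at 100 kb, and 0 windows passed. At 10 kb, 3 of 41717 passed (0.00719%), each lower after high-fat diet. Single CpGs gave 126 of 548011 (0.023%), 51 higher and 75 lower.

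These counts depend on how the 2 strands of a CpG were joined. Adding the strands together treats a CpG as 1 site, but each library lists a cytosine only where it has at least 1 methylated read. In 24.4% of the 548788 CpGs the libraries did not all list the same strands. Among the 126 called CpGs this was so for 94 (74.6%). Of the 91 called CpGs that could be compared, the strand that only some libraries listed was a median of 3.19% methylated, beside 87.8% on the strands listed in all 8. Over all 126170 CpGs with such a strand, that strand had a median of 100%. A fit restricted to strands listed in all 8 libraries, chosen after seeing the data, called 30 of 540341 CpGs (0.00555%), 11 higher and 19 lower, and 28 of these were among the 126. On the same strands limma called 6 and edgeR 237, and the logistic model called 6 with the dispersion never below the CpG's own and 232 without the outlier step. For most CpGs the model took the dispersion from the trend over all CpGs, so a p does not measure the spread of that CpG. On simulated counts, described below, false calls among CpGs exceeded the nominal rate.

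No window passed under the restriction. At 10 kb, 0 of 41236 windows passed (0%), with 1760 at an unadjusted p under 0.05 and 0 called by limma or edgeR. At 100 kb it was 0 of 8924 (0%), with 131 at an unadjusted p under 0.05, 0 called by limma and 2 by edgeR. At 1 Mb it was 0 of 2105 (0%), with 5 at an unadjusted p under 0.05 and 1 called by each of limma and edgeR. The means barely changed with the restriction, which gave class differences of -0.14 to -0.61 points.

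Chromosome 8, 128577458, coordinates here and below being those of the rat build Rnor_6.0, shows what the merging did. The merged CpG read 95%, 100%, 100% and 94.1% in control replicates 1 to 4, and 24.4%, 31.1%, 36.4% and 23.1% in high-fat replicates 1 to 4, a difference of -68.51 points (adjusted p = 1.17e-21). The groups did not overlap. Yet all 4 high-fat libraries listed both strands with 90 to 173 reads, and all 4 controls listed 1 strand with 16 to 40 reads. The second strand was 1.24% methylated over 402 reads, and on the strand listed everywhere the difference was 0.05 points (adjusted p = 1).

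Of the 10 CpGs with the smallest p, 5 in each direction, 7 lost their difference in this way. Higher after high-fat diet on merged strands were chromosome 3, 171341795 (65.66 points, -2.22 on strands listed in all 8), chromosome 1, 274767091 (61.39, then 2.75) and chromosome 18, 28454826 (40.03, then 0.02). Lower were chromosome 2, 219842897 (-70.76, then -2.54), chromosome 7, 134721769 (-66.51, then -1.10) and chromosome 16, 49266871 (-52.65, then -2.70). In each of these the second strand was 1.40% to 3.65% methylated and was listed in at least 3 libraries of one diet and in none of the other. The remaining 3, on chromosomes 11, 13 and 2, held their difference and are described next.

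**Figure D3:**
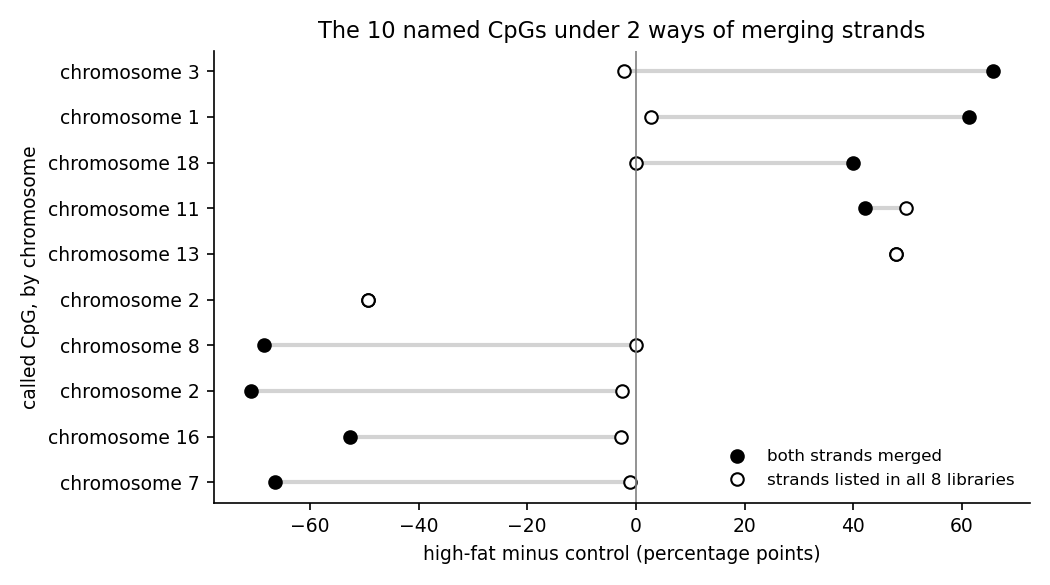
High-fat minus control in percentage points (horizontal axis) for the 10 CpGs with the smallest p, 5 in each direction, with both strands merged (filled) and with strands listed in all 8 libraries (open). The open points of 7 CpGs lie within 2.75 points of 0, while those on chromosomes 11 (49.70), 13 (47.79) and 2 at 134765978 (-49.23) do not.

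The CpG with the smallest p on strands listed in all 8 libraries was chromosome 2, 134765978. It read 95.6%, 95.5%, 97.6% and 97.1% in control replicates 1 to 4 and 51.0%, 53.0%, 45.0% and 39.7% in high-fat replicates 1 to 4, from 44 to 147 reads each. Every control was nearly fully methylated and every high-fat library near the middle. The difference was -49.23 points (adjusted p = 1.21e-24), both strands were listed in all 8 libraries, and it passed without any single library.

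The next 3 were higher after high-fat diet. Chromosome 13, 101252036, read 33.9%, 32.0%, 40.6% and 42.3% in controls and 90.8%, 76.1%, 83.3% and 89.8% in the high-fat group (47.79 points, adjusted p = 1.11e-11). Chromosome 5, 60038838, read 19.7%, 23.8%, 42.9% and 27.9% in controls and 100%, 82.4%, 84.6% and 86.7% in the high-fat group, at 13 to 61 reads (59.85 points, adjusted p = 2.94e-11). This CpG was not called on merged strands. Its other strand was listed in 0 control and 2 high-fat libraries, at 6.35% methylated over 63 reads, beside 46.1% on the strand listed in all 8. Chromosome 11, 22145398, read 13.9%, 6.90%, 10% and 17.4% in controls and 66.0%, 57.5%, 61.0% and 62.5% in the high-fat group (49.70 points, adjusted p = 1.30e-09). None of the 3 overlapped between diets, and all 3 passed with each library left out. At the CpG on chromosome 13 each library listed only 1 strand. The same held for chromosome 4, 18172985, and for the CpGs on chromosomes 6, 20 and 1 described below. Those on chromosomes 19 and 3 had both strands listed in all 8 libraries.

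Chromosome 4, 18172985, read 52.9%, 46.7%, 51.5% and 56.8% in controls and 93.0%, 97.6%, 91.3% and 100% in the high-fat group, a difference of 43.49 points (adjusted p = 2.23e-09). These 5 CpGs also passed in limma on the percentages, with adjusted p from 0.0106 to 0.0365. In the 2 adult control libraries the CpG on chromosome 4 lay at 95 to 100% and that on chromosome 13 at 80 to 95%. The P7 high-fat means of both fell in those classes, and the P7 control means did not. Those on chromosomes 2 (60 to 80%), 5 and 11 (40 to 60% each) lay between the P7 means of the diets. Chromosome 6, 99320857, was less even. Its controls read 40.5%, 90.9%, 29.0% and 48.3% and its high-fat libraries 97.7%, 96.0%, 92.9% and 100%, and the control SD of 27.0 points was the widest of the 10. Its difference of 44.46 points passed in the logistic model (adjusted p = 1.30e-09) and not in limma (adjusted p = 0.995).

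Among lower CpGs, chromosome 19, 57885430, read 89.7%, 90.9%, 91.4% and 97.6% in controls and 48.7%, 62.2%, 71.9% and 71.7% in the high-fat group (-28.78 points, adjusted p = 1.30e-07). Chromosome 3, 9760421, read 90.4%, 63.6%, 86.7% and 97.6% in controls and 46.5%, 42.9%, 52.3% and 50.0% in the high-fat group (-36.67 points, adjusted p = 4.29e-07). Chromosome 1, 130084661, read 98.0%, 96.7%, 96.3% and 98.5% in controls and 78.5%, 78.7%, 70.6% and 69.7% in the high-fat group (-23.00 points, adjusted p = 0.0001001). The groups did not overlap at any of the 3, and limma called none of them (adjusted p = 0.995 each). Chromosome 20, 14143346, overlapped: its controls read 91.5%, 85.7%, 82.5% and 88.7%, and its high-fat libraries 41.9%, 44.6%, 73.5% and 86.4%. Its difference of -25.49 points (adjusted p = 7.34e-06) lost the call when control replicate 1, 2 or 4 or high-fat replicate 2 was left out. The difference itself was -24.03, -25.96, -24.96 and -19.83 points in those runs.

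**Figure D4:**
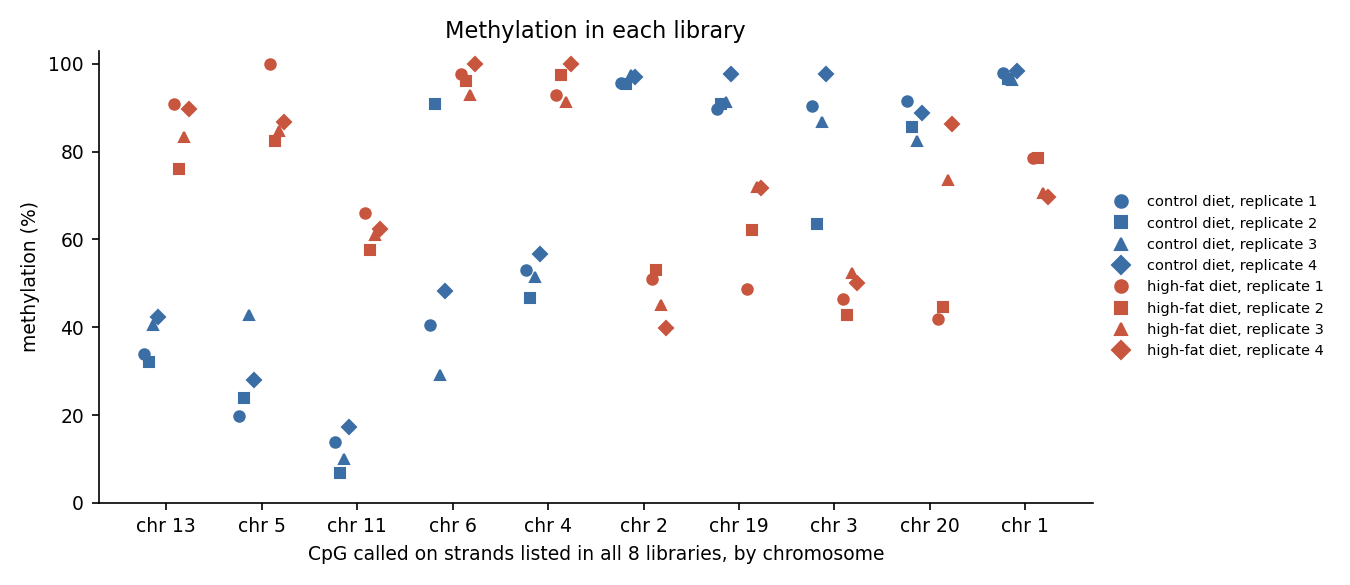
Methylation in percent (vertical axis) in each of the 8 libraries at the 10 CpGs with the smallest p on strands listed in all 8, 5 higher and 5 lower after high-fat diet (horizontal axis, by chromosome; blue, control; red, high-fat; symbols, replicates 1 to 4). The colours overlap only on chromosome 20, and the square of control replicate 2 stands away from its group on chromosomes 6 and 3.

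The 30 CpGs called on common strands had absolute differences from 13.74 to 59.85 points, with a median of 26.98. In 24 of 30 (80%) the libraries of the 2 diets did not overlap, against 2.60% of all 540341 CpGs tested. As the calls rest on that same difference, the share is a description. Of their values in the 8 libraries, 42.5% lay between 30% and 70%, against 18.6% over all CpGs tested. By level class the calls numbered 0 of 1941 at 0 to 5%, 2 of 21026 at 5 to 20%, 3 of 38218 at 20 to 40% and 6 of 51581 at 40 to 60%. Higher up they numbered 11 of 94090 at 60 to 80%, 5 of 212262 at 80 to 95% and 3 of 113703 at 95 to 100%. Only 1 lay on the X chromosome, at 685250.

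Shifts at CpGs neighbouring the called ones were smaller. The called CpGs were chosen by their large differences, and the cause of the contrast was not tested. Of 27 with another tested CpG within 100 bp, the mean neighbour moved in the direction of the call in 17, by a median of 1.89 points (quartiles -0.38 to 10.8). Of 19 with one beyond 100 and up to 1000 bp it was 14, by a median of 5.58 points. Of 20 with one beyond 1000 and up to 10000 bp it was 11, by a median of 0.25 points. Another called CpG stood within 100 bp for 2 of the 30, a pair on chromosome 4, and within 1000 bp for 2 more, a pair on chromosome 3 at 160685 and 160987.

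The pair on chromosome 4 belongs to a cluster of 13 CpGs on chromosome 4, 33640220 to 33640573. All 13 were lower after high-fat diet on average. The unweighted mean over the cluster, on strands listed in all 8, was 31.6%, 28.3%, 37.3% and 37.4% in control replicates 1 to 4 and 23.5%, 24.8%, 15.6% and 22.4% in high-fat replicates 1 to 4, or 33.7% ± 4.49 and 21.6% ± 4.07 (SD, n = 4). Every high-fat library lay under every control, and the difference was -12.10 points. In the 2 adult control libraries the same CpGs averaged 26.2%, between the diets at P7. The cluster was picked out after its values were seen, so it has no test of its own.

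The largest changes of the cluster were at its 2 called CpGs, 110 and 124 bp from its first. At 33640344 the controls read 33.3%, 22.7%, 46.8% and 28.6% and the high-fat libraries 10.6%, 14.1%, 5.56% and 2.78% (-24.61 points, adjusted p = 0.00356). At 33640330 the controls read 21.7%, 39.1%, 40.4% and 26.2% and the high-fat libraries 10.6%, 10.9%, 3.70% and 5.56% (-24.15 points, adjusted p = 0.0222). The smallest change was -2.24 points at the last CpG of the cluster, where the diets overlapped. In 7 of the 13 CpGs every high-fat library was under every control. Over all 540341 CpGs tested, the diets did not overlap in 2.6%, counting both directions. The 13 lie close together in the same libraries and were picked after their values were seen, so the count is a description.

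The 100 kb window that holds the cluster, chromosome 4, 33600001 to 33700000, had the smallest p of its scale on merged strands without passing. Its 22 CpGs read 48.7%, 45.3%, 52.0% and 52.3% in controls and 42.0%, 39.1%, 25.1% and 38.2% in the high-fat group, a difference of -13.49 points (adjusted p = 0.267). High-fat replicate 3 was the lowest, and the groups did not overlap. Unweighted over its CpGs, the window differed by -8.51 points. It passed without control replicate 2 (adjusted p = 0.0313) and without high-fat replicate 1 (adjusted p = 0.00343). With strands listed in all 8 the difference was -13.59 points and the adjusted p 0.9998. With merged strands and no outlier step in the moderation, the adjusted p was 0.99985. Outside the cluster the window held a group of 6 CpGs that differed by -3.61 points and a group of 3 that differed by -3.39 points.

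**Figure D5:**
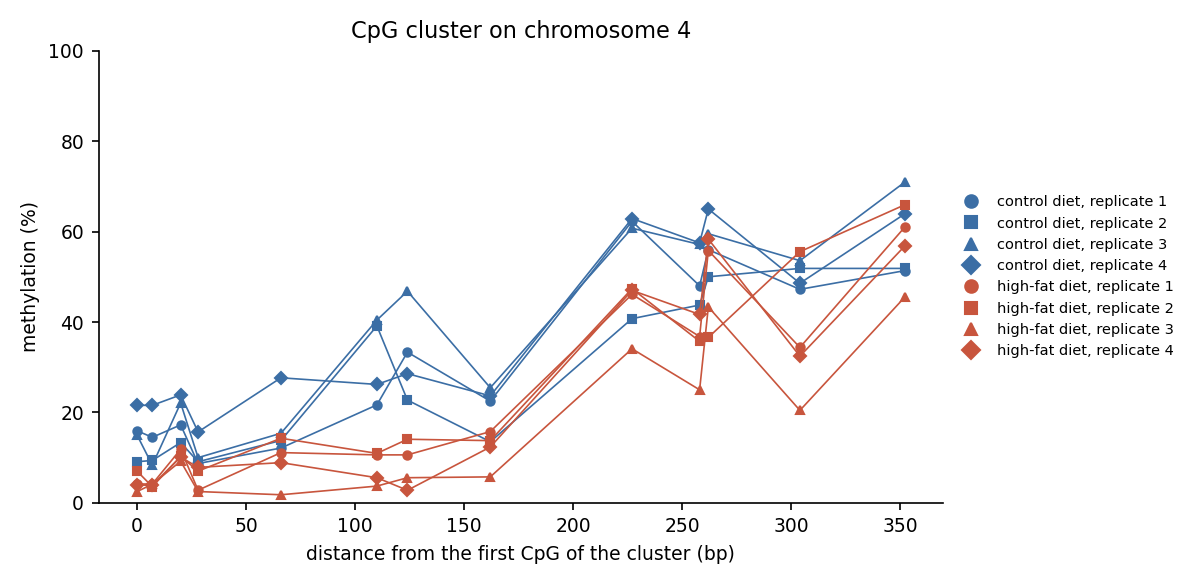
Methylation in percent (vertical axis) at the 13 CpGs of the chromosome 4 cluster against the distance in bp from the first (horizontal axis), on strands listed in all 8, with 1 line per library (blue, control; red, high-fat). The red lines run under the blue ones over much of the cluster, with the widest gap at 110 and 124 bp.

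The 3 windows of 10 kb called on merged strands were chromosome 11, 87200001 to 87210000 (18 CpGs, adjusted p = 0.00158), chromosome 3, 11470001 to 11480000 (6 CpGs, adjusted p = 0.0388) and chromosome 18, 77320001 to 77330000 (7 CpGs, adjusted p = 0.0388). The first read 90.5%, 94.7%, 90.2% and 93.2% in controls and 73.5%, 83.5%, 74.8% and 77.8% in the high-fat group. Its difference of -14.69 points became -0.45 on strands listed in all 8. The diets did overlap in the second, which went from -16.59 to -1.97 points, and the third went from -16.66 to -1.57. Strand listing differed between libraries in 8 of 18, 3 of 6 and 3 of 7 of their CpGs.

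On strands listed in all 8, the 10 kb windows nearest to passing were on chromosomes 5 and 7. Chromosome 5, 58280001 to 58290000, with 8 CpGs, read 94.7%, 91.4%, 86.8% and 93.2% in controls and 80.7%, 81.2%, 78.2% and 80% in the high-fat group (-11.50 points, adjusted p = 0.0866). In 5 of its CpGs the high-fat mean was lower and in 3 higher, and 1 CpG differed by -81.82 points. Chromosome 7, 108370001 to 108380000, with 5 CpGs, read 92.3%, 84.7%, 91.5% and 92.8% in controls and 73.2%, 70.9%, 79.7% and 89.7% in the high-fat group (-11.97 points, adjusted p = 0.105). The diets did not overlap on chromosome 5 and did on chromosome 7. In the other direction, chromosome 5, 60360001 to 60370000, read 81.0%, 87.3%, 79.0% and 71.8% in controls and 95.9%, 92.5%, 93.8% and 88.2% in the high-fat group (12.82 points, adjusted p = 0.260), and each of its 5 CpGs was higher. Chromosome 1, 11900001 to 11910000, differed by 10.16 points on pooled reads (adjusted p = 0.260) and by 0.12 points as the unweighted mean of its 47 CpGs.

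At larger scales no window passed. At 100 kb on merged strands they were chromosome 5, 144500001 to 144600000 (-6.85 points), chromosome 3, 12000001 to 12100000 (5.60 points) and chromosome 2, 15500001 to 15600000 (1.85 points), with adjusted p from 0.800 to 0.9998. Unweighted over their CpGs, those windows differed by -2.01, 1.93 and 1.34 points. At 1 Mb they were chromosome 10, 112000001 to 113000000 (3.96 points), chromosome 2, 223000001 to 224000000 (2.52), chromosome 11, 50000001 to 51000000 (-2.94) and chromosome 13, 56000001 to 57000000 (-4.19), each with an adjusted p of 0.998. As unweighted means of their CpGs the 1 Mb differences were 0.14, 0.22, -1.60 and -1.01 points. On strands listed in all 8, the 100 kb windows with the smallest p were chromosome 20, 12800001 to 12900000 (-7.83 points), chromosome 16, 17600001 to 17700000 (-5.98), chromosome 1, 72700001 to 72800000 (9.11) and chromosome 2, 15500001 to 15600000 (1.86), with adjusted p from 0.420 to 0.9998. The first 3 did not overlap between diets. Unweighted over their CpGs, the windows listed differed by -3.64, -1.49, 6.15 and 1.345 points. At 1 Mb they were chromosome 4, 33000001 to 34000000 (-5.74), which holds the cluster, chromosome 2, 237000001 to 238000000 (-4.03), chromosome 9, 39000001 to 40000000 (2.88) and chromosome 10, 112000001 to 113000000 (2.37), each with an adjusted p of 0.9991. As unweighted means of their CpGs these differences were -3.56, -1.34, -0.062 and 0.080 points, so that on chromosome 9 turned. Without high-fat replicate 3 the window on chromosome 4 differed by -2.34 points. No annotation of Rnor_6.0 was used here, so no gene is named at any of these places.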

How the data were processed

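Per the labels' protocols, NuGEN's Ovation kit was used to make the RRBS libraries. For each CpG cytosine and strand, the authors deposited the counts of methylated and of unmethylated reads, not normalized, on Rnor_6.0 per the submitters' processing notes. Aligner and caller: not given in the sources used here.

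The members and lists were chosen with earlier results of these data known. Strands were merged (minus-strand position minus 1). CpGs needed 10 reads in all 8 libraries. Level classes came from the 2 adult control libraries whose titles carry no lane number (their leading numbers, 3 and 4, are also those of control replicates 1 and 2). Means used exact permutation tests over libraries (4 against 4; smallest two-sided p 0.0286). Windows of 10 kb, 100 kb and 1 Mb (at least 5, 20 and 50 CpGs; 3 at 1 kb, described only), without CpGs above the 99.9th percentile of coverage, and CpGs were tested by a quasi-binomial logistic model with dispersions moderated by limma 3.58.1 and never below 1, and Benjamini-Hochberg adjustment at 0.05. Features with an outlying dispersion (upper-tail p under 0.01) kept their own, a step added after the CpG count without it was seen. For most CpGs the moderation gave all weight to the trend (12085 of 548011 kept their own), so their p does not measure the CpG's own spread. The same held at 1 Mb, where 27 of 2115 windows kept their own. On simulated counts with a spread of its own per CpG, false calls among CpGs exceeded the nominal rate. That spread was drawn from a set distribution and not fitted to these data. A difference is the high-fat minus the control mean of library percentages; window percentages pool reads.

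Named items: the 5 called CpGs and 3 called windows with the smallest p in each direction, or 2 windows not passing, and 2 chromosomes; the same rule was used again on strands listed in all 8. Alternatives were limma, edgeR 4.0.16, 20 reads, thinning, separate strands, centring, coverage and CpG limits, and each library left out. Comparison by gene annotation was not run. The deposited counts do not show whether molecular identifiers were used, and depth covers counting error only. Python 3.11.15, numpy 2.4.6, pandas 2.3.3 and R 4.3.3 were used.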

Additional observations from a re-analysis of the deposited data

Results flagged for a closer look

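In 172 groups of 4 library values, the highest or lowest library stood apart from the other 3 of its diet in 5 cases, by a gap that chance gives in about 1 of 20 groups. Control replicate 2 had a median of 23 reads per CpG, against 37 to 38 in the other controls. It also read 84.7% in the 10 kb window of chromosome 7 at 108370001 on strands listed in all 8, against 91.5% to 92.8%. High-fat replicate 3 read 52.9% in the 1 Mb window of chromosome 4 at 33000001 on strands listed in all 8, against 65.9% to 67.1% in the other high-fat libraries. High-fat replicate 4 read 71.1% in the merged 10 kb window of chromosome 18 at 77320001, against 61.5% to 63.0%. Control replicate 4 read 85% at the merged CpG of chromosome 2 at 219842897, where the other controls read 100%.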

How the results depend on the processing

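No class, chromosome or distribution measure passed in any alternative run. The overall difference of -0.41 points kept its sign except without high-fat replicate 3, with -0.78 to 0.17 when 1 library was left out and -1.20 with reads pooled; the cause of these turns was not tested. Without that replicate the classes from 5 to 95%, the 20 autosomes and the shares at both extremes also turned. When 1 library was left out, the class differences ranged from -0.44 to -0.14 at 0 to 5%, -0.66 to 0.16 at 5 to 20%, -1.14 to 0.81 at 20 to 40%, -1.57 to 0.70 at 40 to 60%, -1.32 to 0.24 at 60 to 80%, -0.64 to 0.029 at 80 to 95% and -0.35 to -0.059 at 95 to 100%. Those at 20 to 40% (0.38) and 40 to 60% (0.12) turned without control replicate 1 too. The autosomes ranged from -0.80 to 0.12 on chromosome 1, -0.78 to 0.13 on 2, -0.76 to 0.21 on 3, -0.82 to 0.12 on 4, -0.85 to 0.11 on 5, -0.73 to 0.21 on 6, -0.82 to 0.15 on 7, -0.77 to 0.16 on 8, -0.73 to 0.15 on 9, -0.80 to 0.14 on 10. They ranged from -0.74 to 0.21 on 11, -0.93 to 0.085 on 12, -0.71 to 0.23 on 13, -0.75 to 0.077 on 14, -0.79 to 0.11 on 15, -0.80 to 0.17 on 16, -0.91 to 0.10 on 17, -0.90 to 0.11 on 18, -0.79 to 0.19 on 19 and -0.69 to 0.21 on 20. X ranged from -0.80 to 1.43, turning without control replicate 2 (-0.80, or -0.68 on re-chosen CpGs). The share with 0 or 1 methylated reads ranged from -0.17 to 0.43, that with 2 to 8 from 0.049 to 1.07 and that with 9 or 10 from -1.38 to 0.13. Pooling reads moved 18 autosomes to between -0.90 and -2.15 and chromosome 14 to -0.035, and turned the class at 20 to 40% (0.52), chromosome 1 (0.37) and X (-0.41). Centring turned 5 classes (0.092 at 0 to 5%, 0.078 at 5 to 20%, 0.14 at 20 to 40%, 0.066 at 80 to 95% and 0.20 at 95 to 100%).

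The 126 merged CpGs became 24 with limma, 25 with limma on centred libraries, 310 with edgeR, 57 at 20 reads, 83 after thinning, 27 with strands apart, 30 on strands listed in all 8, and 152 to 266 without 1 library (266, 205 and 210 without high-fat replicates 1, 2 and 4). Alternatives added after seeing the data gave 26 with the dispersion never below the CpG's own and 1063 without the outlier step. On strands listed in all 8, the 30 CpGs became 6 with limma, 237 with edgeR, 6 with the dispersion never below the own, 232 without the outlier step, and 32 to 107 without 1 library (46 without control replicate 2 or 4, and 107, 64 and 52 without high-fat replicates 1, 2 and 4). The 3 merged 10 kb windows became 0 with limma, centred or not, 0 after thinning, 0 with the own dispersion as a minimum, 0 on strands listed in all 8, 1 with edgeR, 1 without the outlier step, 1 with strands apart, 1 with at least 10 CpGs, 5 on CpGs re-chosen without control replicate 2, and 1 to 8 without 1 library (7 and 1 without control replicates 2 and 4, 8 and 5 without high-fat replicates 2 and 3). On strands listed in all 8, leaving out 1 library gave 0 to 4, with 4 without control replicate 2 or 3. At 100 kb, leaving out 1 library gave 0 to 2 merged windows (2 without control replicate 2, 1 without high-fat replicate 1) and re-chosen CpGs gave 3; on strands listed in all 8 it was 0 to 1, with 2 by edgeR and 1 without the outlier step. At 1 Mb it was 0 to 1 without 1 library, 1 with limma, 1 with edgeR and 1 without the outlier step, and on strands listed in all 8 0 to 1, with 1 each by limma and edgeR. The CpG at chromosome 8, 128577458, read 0.046 with strands apart or listed in all 8, that of chromosome 3, 171341795, -2.22 on strands listed in all 8, and the 1 Mb window of chromosome 10, 112000001, -0.098 after thinning.

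The thinnest library had a median of 23 reads per CpG, which limits single-CpG differences; the smallest called on merged strands was 2.80 points, at CpGs with more reads. No paired analysis was possible because the replicate numbers here only name the libraries in accession order and the labels tie no number to a shared litter, batch or day.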
